A study of Mus musculus with 22 samples.

Results

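Keratin genes and the vimentin gene were followed through the conversion of mouse fibroblasts by reprogramming factors. The set holds 8 genes, taken by symbol from the 24130 genes of each library: the type II keratin genes Krt7, Krt8 and 4732456N10Rik, the type I keratin genes Krt18, Krt19, Krt14 and Krt17, and Vim. All 8 had counts. The gene 4732456N10Rik was included because of its level with OvSvK, that is, it was chosen by its measured values in that arm, which are therefore given as a description without a test. The cells were OG2 transgenic embryonic fibroblasts at passage P2, on a mixed background of 129SVJ, C57B6 and CBA. OvSvK cells had received Oct4-vp16, Sox2-vp16 and Klf4, where vp16 is a viral transcription-activating domain, and were collected at days 0, 1, 2, 3 and 4. OSK cells had received unfused Oct4, Sox2 and Klf4 and were collected at days 0, 1, 3, 5 and 7. In 3 further OSK arms bFGF, vitamin C or the GSK3 inhibitors CHIR-99021 and LiCl were absent from the medium, at days 3 and 7. GFP cells had received GFP in place of the factors, at days 1, 3, 5 and 7, and served as the control. All 20 libraries followed 2 days of transfection, and each arm and day was 1 library, so values have no replicate spread. Neither the vector nor the share of cells that received it is known from the labels. Columns for mouse embryonic stem cells (mESC) and untreated fibroblasts (MEF) occur only in the table of the whole series.

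Keratins and vimentin are intermediate filament proteins. Vimentin forms filaments with itself and is the usual filament of fibroblasts and other mesenchymal cells. A keratin filament is built from pairs of 1 type I and 1 type II protein, and most cells express the types as matched pairs. Krt8 and Krt18 are the pair of simple epithelia and of early embryonic epithelium, often with Krt7 and Krt19. Krt14 belongs to the basal layer of stratified epithelia, where Krt5 is its partner, and Krt17 is a keratin of skin appendages and injured epidermis. In the conversion of fibroblasts to pluripotent cells a mesenchymal-to-epithelial transition is an early step, and a shift away from vimentin towards simple keratins is one of its usual readouts.

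Library totals lay between 7872277 and 20720718 expected counts. The libraries fell into technical sets by the share of counts on the pseudogene Rpsa-ps10. OSK days 1 to 7 and all GFP libraries had 3.32% to 7.78% there, and OvSvK, OSK day 0 and the omission libraries had 0.124% to 0.476%. OSK and GFP at matched days are therefore compared within a technical set. OvSvK against OSK from day 1 on, OvSvK against GFP and the omissions against OSK cross the sets, and the set and the treatment cannot be told apart in those comparisons. The OSK course crosses them as well, between day 0 and day 1, so the lines over the OSK days that passed for a member are also given without day 0. OvSvK and OSK at day 0 lie within a set. OSK day 0 stood farthest apart, with genes of the lowest of 5 GC groups at -1.70 and of the highest at 1.201 (median log2 deviation), and GFP day 1 came next at -0.96 and 0.40. All 10 fibroblast markers were detected with at least 10 counts in every library, and their summed level was 1587 to 6472 TPM in OvSvK, 1131 to 6844 TPM in OSK and 5141 to 10750 TPM in GFP. TPM, the transcript abundance that RSEM scales by length and library, is used for levels between genes. In RNA from whole cultures, fewer cells of a type and less RNA per cell cannot be told apart.

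The arms held different keratins. Over 27 type I and 26 type II keratin genes, the members included, the summed level in OvSvK was 120.5 TPM at day 0 and 493.4, 655, 620.9 and 443.6 TPM at days 1 to 4. In OSK it was 150.9 TPM at day 0 and 112, 89.8, 104.3 and 144.4 TPM at days 1, 3, 5 and 7, and in GFP it was 83.4, 55.7, 98.3 and 65.4 TPM at days 1, 3, 5 and 7. The ratio of type II to type I transcripts was 0.987 to 1.26 in OvSvK at days 1 to 4 and 0.935 to 1.56 in OSK at days 1 to 7, against 0.0443 to 0.302 in GFP. On CPM (counts scaled to library size, not divided by length) it was 1.46 to 1.81 in OvSvK and 1.38 to 2.30 in OSK on those days, against 0.0626 to 0.418 in GFP. On either scale GFP cells held an excess of type I, and each OvSvK and OSK library from day 1 on had a higher ratio than any GFP library. At day 0 the ratio was 0.299 in OvSvK and 0.231 in OSK, inside the GFP range. In GFP 62.6% to 92.7% of the type I level was Krt18 alone. Vimentin remained far above the keratins everywhere: its level was 4.72 to 54.3 times the summed keratins in OvSvK, 19.3 to 57.0 times in OSK and 50.5 to 109.4 times in GFP.

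**Figure D1:**
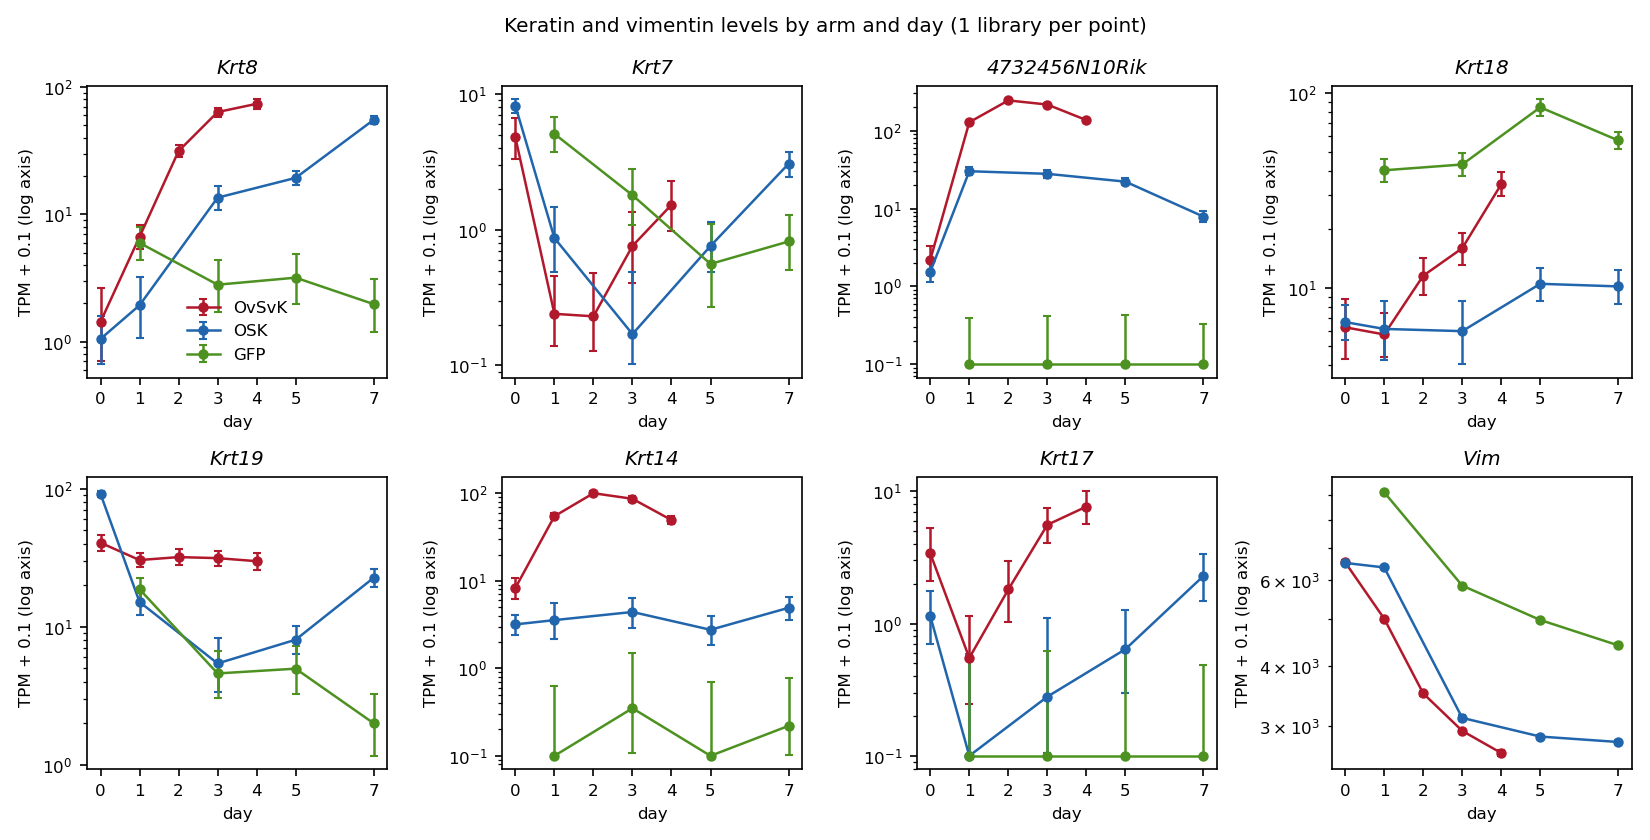
TPM plus 0.1 on a log axis against day for the 8 genes in OvSvK, OSK and GFP. Each point is 1 library and bars are 95% Poisson intervals of the count (for 0 counts, up to the limit of 3 counts). Krt8 climbed in both arms with factors, Krt18 was highest in GFP, 4732456N10Rik and Krt14 were highest in OvSvK, and Vim was lower at later days in all 3 arms.

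**Figure D2:**
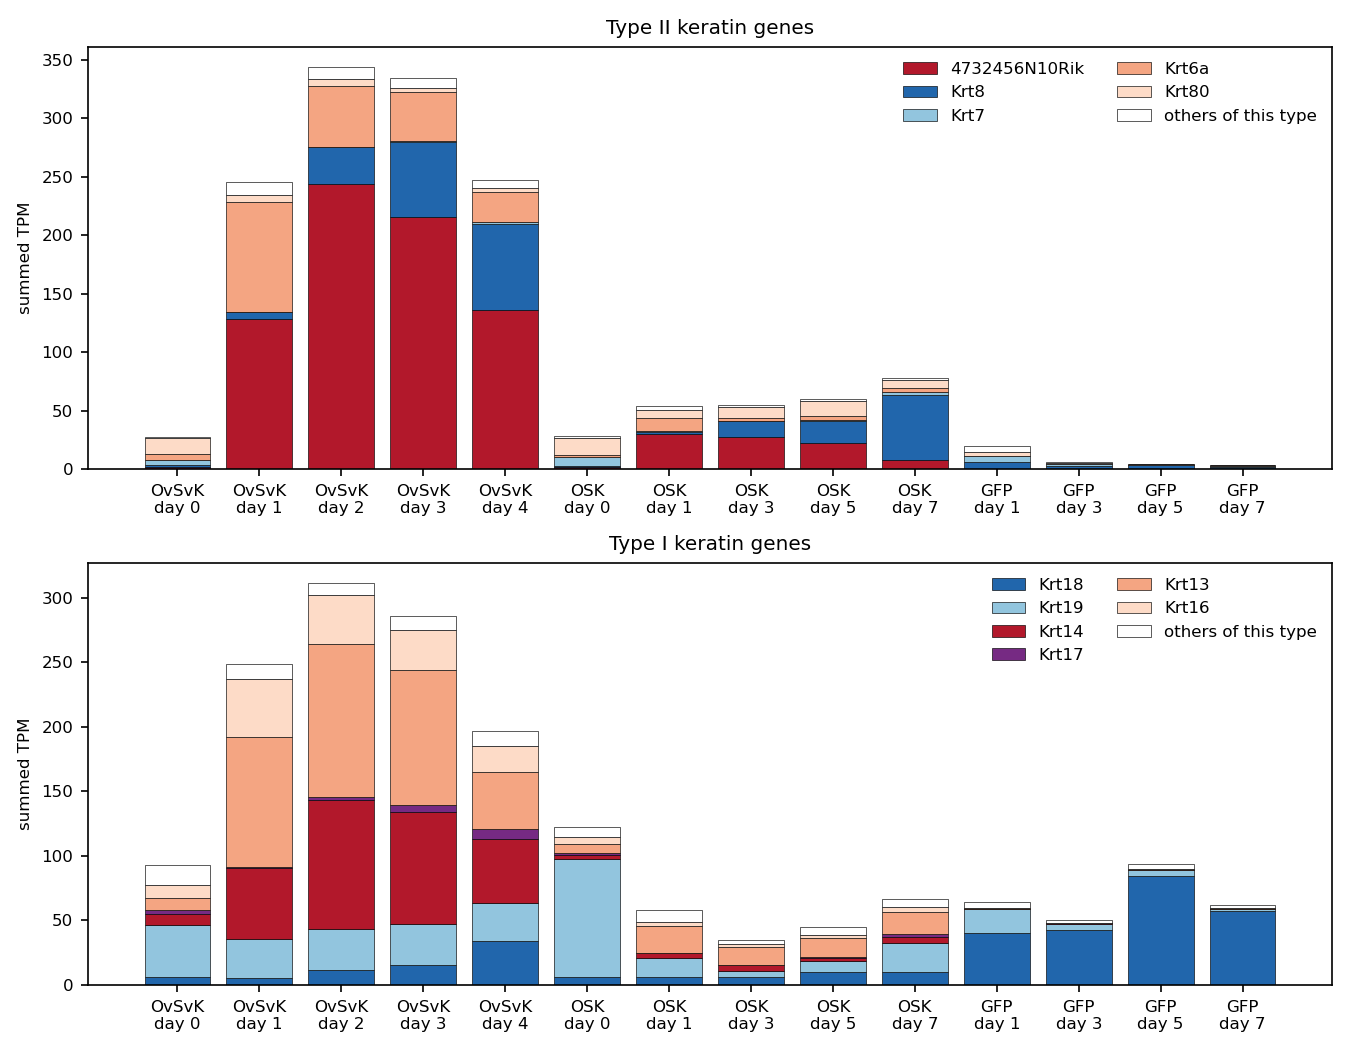
Summed TPM of the type II (upper) and type I (lower) keratin genes in each library of OvSvK, OSK and GFP, split by gene. In GFP Krt18 held 62.6% to 92.7% of the type I level and the type II level was 3.83 to 19.4 TPM, and at OSK day 7 Krt8 held 71.2% of the type II level.

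The highest keratin level in OvSvK at days 1 to 4 was that of 4732456N10Rik, a type II gene annotated in GENCODE and RefSeq as Krt90. It lies on the minus strand of mouse chromosome 15 at chr15:101552356-101562950 (mm10), inside the type II keratin cluster. Its levels in OvSvK were 2.10 TPM at day 0 and 128, 244, 216 and 136 TPM at days 1 to 4. In OSK they were 1.44, 30.0, 27.8, 22.03 and 7.77 TPM at days 0, 1, 3, 5 and 7. In all 4 GFP libraries it had 0 counts, which allows at most 0.233 to 0.327 TPM. Every library with factors from day 1 on was therefore above every GFP library, and the course had its peak at day 2 in OvSvK and at day 1 in OSK. On counts, OvSvK exceeded OSK 4.03-fold (95% interval 3.57 to 4.55) at day 1 and 7.41-fold (6.52 to 8.47) at day 3. Against the limit of 3 counts per GFP library, OvSvK was at least 356.5-fold higher at day 1 and at least 551-fold higher at day 3. OSK was at least 88.6-, 74.3-, 59.3- and 30.8-fold higher than GFP at days 1, 3, 5 and 7. With 0 counts in GFP the gene passed the filter on low counts only through OSK, so this difference is a description with no test.

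The nearest neighbours of 4732456N10Rik did not share these levels. Krt75, the next gene upstream on the same strand, had at most 1 count in each OvSvK, OSK and GFP library from day 1 on, and Krt82, the next downstream, had at most 1 count in OvSvK. Farther upstream in the cluster Krt6b had 148 and Krt6a had 1541 counts in OvSvK at day 1, against 0 in every GFP library. Of the 31-base stretches of the 4732456N10Rik transcripts 4.71% also occur in another gene, nearly all in a microRNA gene model within it, so its reads are largely its own.

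Promoter windows were read for the genes whose levels parted most. Of the 8 genes 6 had an entry in the RefSeq table (GRCm38.p6), which runs 250 bases before to 50 bases after the start that RefSeq annotates. That start lies 0 bases inside the GENCODE gene for 4732456N10Rik (listed as Krt90), 36 for Krt18, 140 for Krt8 and 384 for Vim. For Krt7 and Krt14 it lies 1360 and 1518 bases inside, so their windows are not at the outer 5′ end of the gene and are not shown. The windows of 4732456N10Rik, the highest keratin in OvSvK at days 1 to 4, and of Krt8 and Krt18, partners with different courses, are shown 5′ to 3′. They lie at chr15:101562901-101563200 (minus strand), chr15:102004293-102004592 (minus) and chr15:102027966-102028265 (plus). Capitals mark matches on either strand to 3 motifs. The first is CCACCC, which Klf factors are known to bind. The second is the motif TATAAA of core promoters. The third is the AP-2 motif GCCNNNGGC.
4732456N10Rik: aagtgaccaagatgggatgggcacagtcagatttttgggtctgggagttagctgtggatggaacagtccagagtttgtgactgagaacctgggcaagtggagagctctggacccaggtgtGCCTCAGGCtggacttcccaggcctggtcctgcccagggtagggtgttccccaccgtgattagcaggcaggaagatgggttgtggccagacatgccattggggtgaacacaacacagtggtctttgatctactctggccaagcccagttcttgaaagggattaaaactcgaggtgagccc
Krt8: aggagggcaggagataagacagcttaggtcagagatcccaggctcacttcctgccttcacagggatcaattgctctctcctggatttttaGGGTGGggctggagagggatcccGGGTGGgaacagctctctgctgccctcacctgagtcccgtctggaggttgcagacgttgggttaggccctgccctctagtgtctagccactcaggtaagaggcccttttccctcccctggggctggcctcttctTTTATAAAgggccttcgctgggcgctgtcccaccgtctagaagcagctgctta
Krt18: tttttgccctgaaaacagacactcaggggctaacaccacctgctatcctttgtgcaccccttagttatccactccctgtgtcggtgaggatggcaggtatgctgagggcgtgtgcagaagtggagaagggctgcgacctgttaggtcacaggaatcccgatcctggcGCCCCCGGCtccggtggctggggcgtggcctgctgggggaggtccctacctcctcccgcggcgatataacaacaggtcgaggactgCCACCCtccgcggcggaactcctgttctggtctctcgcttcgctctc
CCACCC occurred once in the Krt18 window, 2 times in that of Krt8 and not in that of 4732456N10Rik, while 31.5% of all 32851 promoter windows hold it. In Krt8 the 2 matches to TATAAA overlap on opposite strands, and 13.6% of all windows hold that motif. GCCNNNGGC was found once each for 4732456N10Rik and Krt18 and is held by 16.6% of windows. The octamer ATGCAAAT (1.74% of windows), the SOX motif ATTGTT (10.7%) and the AP-1 motif TGANTCA (7.81%) matched none of the 6 windows. These are letter matches within 300 bases and no evidence of binding or its absence.

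Krt8 was the member that climbed along both factor courses. It lies at chr15:101996698-102004482 on the minus strand. Its levels in OvSvK were 1.33, 6.55, 31.3, 63.5 and 73.7 TPM at days 0 to 4, and in OSK 0.95, 1.83, 13.4, 19.2 and 55.2 TPM at days 0, 1, 3, 5 and 7. In GFP it stood at 5.87, 2.70, 3.08 and 1.87 TPM at days 1, 3, 5 and 7. Each OvSvK and OSK library from day 3 on was above all GFP libraries. Fitted as a line over the days of an arm (edgeR's quasi-likelihood test over 14 libraries), Krt8 rose by 1.33 log2 units per day in OvSvK (SE 0.21, adjusted p = 0.00379) and by 0.71 per day in OSK (SE 0.10, adjusted p = 0.00079). Without OSK day 0, which lies in the other technical set, the OSK slope was 0.69 (adjusted p = 0.00706). The error of such a line is the departure of single libraries from it. Without OvSvK day 0 the OvSvK slope was 1.05 with an adjusted p of 0.0803. The difference between the slopes was not tested. In GFP the slope was -0.28 per day (SE 0.13, adjusted p = 0.202).

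At matched days the Krt8 difference between OSK and GFP changed its direction. It was -1.80 log2 units at day 1 and 2.00, 2.38 and 4.63 at days 3, 5 and 7. The mean difference over 4 days was 2.05 (SE 1.12), which did not pass the threshold of 0.05 (adjusted p = 0.212). Without day 1, the day of the GFP library that stood apart in GC content, it was 3.09 with an adjusted p of 0.0116. Of the 31-base stretches in Krt8 transcripts 36% recur elsewhere, mostly in the pseudogene Krt8-ps, not analysed here, so some reads of that copy could be counted in Krt8.

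Krt18, the type I partner of Krt8, followed another course. It lies at chr15:102028180-102032027 on the plus strand, next to Krt8. Its levels in OvSvK were 6.17, 5.66, 11.4, 15.9 and 34.0 TPM at days 0 to 4, and in OSK 6.57, 6.05, 5.89, 10.4 and 10.1 TPM at days 0, 1, 3, 5 and 7. In GFP it was 40.1, 43.0, 84.6 and 57.1 TPM at days 1, 3, 5 and 7, the 4 highest values of the 20 libraries. Against GFP, OSK cells held less Krt18 on each of the 4 days, by -2.95 log2 units over the days (SE 0.20, adjusted p = 0.00101), and the call held without each day in turn. In OvSvK the ratio to GFP was 0.113 (0.0831 to 0.152) at day 1 and 0.299 (0.236 to 0.377) at day 3. Within OvSvK Krt18 rose by 0.52 log2 units per day (SE 0.14, adjusted p = 0.039), a call that ended without any of the 5 OvSvK libraries, without OSK day 5 or without GFP day 1, with adjusted p between 0.0525 and 0.369. The slope in OSK was 0.0026 per day (SE 0.08, adjusted p = 0.98). At day 4 of OvSvK Krt8 was at 73.7 TPM and Krt18 at 34.0 TPM, at day 7 of OSK they were at 55.2 and 10.1 TPM, and at day 7 of GFP at 1.87 and 57.1 TPM. Across the 20 libraries log2 CPM of the 2 genes had a Pearson r of -0.03, a description over libraries that share arms, days and technical sets. This r includes the 4 GFP libraries, which held the highest Krt18 with Krt8 at 1.87 to 5.87 TPM. No r was taken within the libraries with factors, and in OvSvK the levels of both genes rose.

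Krt7, another simple epithelial type II gene (chr15:101411043-101430313, plus strand), stayed low. Its levels were 4.70, 0.14, 0.13, 0.66 and 1.43 TPM at days 0 to 4 in OvSvK, and 8.11, 0.77, 0.07, 0.66 and 2.97 TPM at days 0, 1, 3, 5 and 7 in OSK. In GFP they were 5.0, 1.70, 0.46 and 0.72 TPM. The arms overlap, and in these 3 arms the first day had the highest value. The mean difference of OSK and GFP was -0.65 (SE 1.02, adjusted p = 0.656), and single days lay on both sides of 0.

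**Figure D3:**
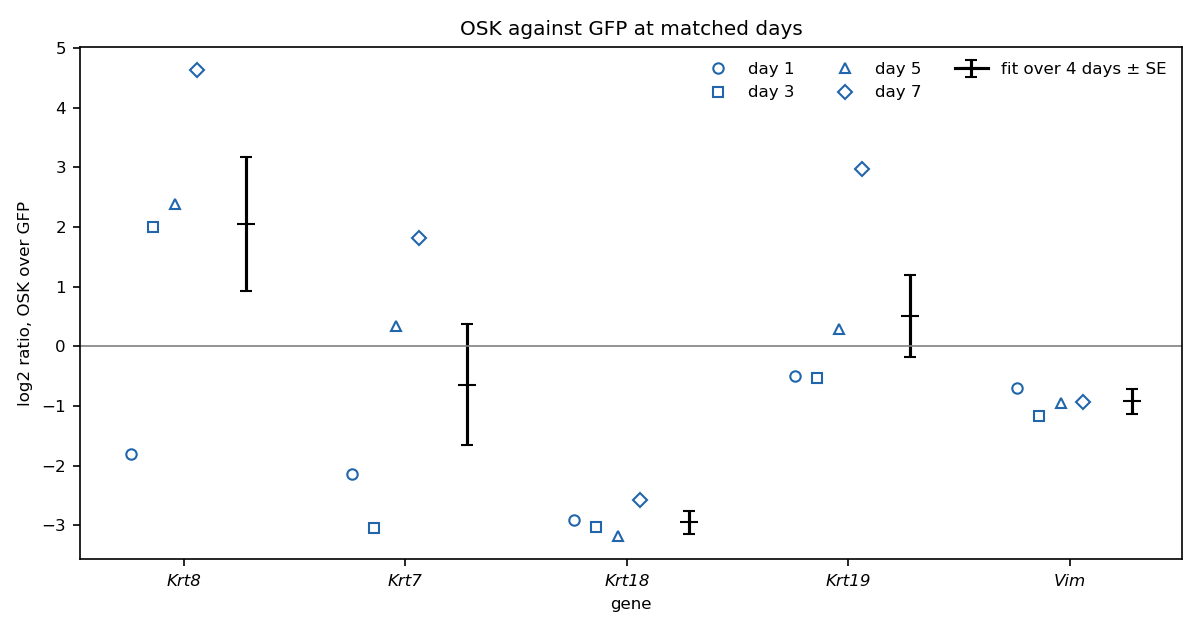
Log2 ratio of OSK over GFP at days 1, 3, 5 and 7 for 5 genes (open symbols, 1 library each side, prior count of 2) and the fitted difference over the days with its SE (black). Krt18 lay between -3.18 and -2.58 and Vim between -1.16 and -0.70 on every day, while Krt8, Krt7 and Krt19 had ratios on both sides of 0.

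Krt19, the smallest keratin of simple epithelia, was highest at day 0 in both OvSvK and OSK. It lies at chr11:100140810-100148665 on the minus strand, in the type I cluster. The OvSvK levels were 40.4, 30.3, 31.8, 31.3 and 29.7 TPM at days 0 to 4, and on CPM 31.5 at day 0 and 15.3 to 17.95 at days 1 to 4, with no slope called (-0.22 per day, adjusted p = 0.707). In OSK they were 91.4, 15.0, 5.32, 7.95 and 22.5 TPM at days 0, 1, 3, 5 and 7, and in GFP 18.6, 4.49, 4.87 and 1.90 TPM at days 1, 3, 5 and 7. OSK was thus lowest at day 3 and above GFP at day 7 by 8.66-fold (5.12 to 15.8), while at days 1 to 5 the levels of both arms were within a factor of 2 of each other. The mean difference was 0.51 (SE 0.69, adjusted p = 0.602). OvSvK was 7.96-fold (5.04 to 13.3) above OSK at day 3 and 0.303 times OSK (0.263 to 0.348) at day 0. The OSK line fell by 0.43 per day (SE 0.16, adjusted p = 0.0468), but without OSK day 0 the slope was 0.05 (adjusted p = 0.821), so that call rests on the library that stood apart and lies in the other technical set. It was also lost, with adjusted p of 0.0541 to 0.111, without any 1 of 10 other libraries.

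Krt14 and Krt17 are keratins of stratified epithelia whose genes lie in the type I cluster, at chr11:100203162-100207548 and chr11:100256217-100261029, both on the minus strand. Krt14 was at 8.21, 54.7, 100.4, 86.7 and 49.5 TPM at days 0 to 4 of OvSvK, and at 3.08, 3.46, 4.31, 2.66 and 4.82 TPM at days 0, 1, 3, 5 and 7 of OSK. The GFP libraries held 0, 1, 0 and 1 counts. All OvSvK libraries were above all OSK libraries, and these were above all GFP libraries. OvSvK exceeded OSK 19.1-fold at day 1 (12.0 to 32.4) and 19.1-fold at day 3 (12.9 to 29.4). OSK exceeded GFP 23.0-fold at day 3 (3.78 to 943.1) and 30.8-fold at day 7 (5.25 to 1242), and it was at least 5.28-fold higher at day 1 and at least 4.13-fold higher at day 5. With at most 1 count in each GFP library Krt14 passed the filter on low counts only through OSK, so its difference from GFP is given without a test. Neither slope passed: 0.38 per day in OvSvK (SE 0.29, adjusted p = 0.448), where the level peaked at day 2, and -0.08 in OSK (SE 0.13, adjusted p = 0.629).

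Krt17 was low in all arms. It had 3.29, 0.45, 1.71, 5.48 and 7.56 TPM at days 0 to 4 of OvSvK, and 1.04, 0, 0.18, 0.54 and 2.19 TPM at days 0, 1, 3, 5 and 7 of OSK. GFP had 0 counts in 4 of 4 libraries, which allows up to 0.386 to 0.540 TPM. It did not pass the filter on low counts for OSK against GFP and was not tested there. Of the 31-base stretches of Krt14 transcripts 28.2% recur in other genes, mainly Krt16 and Krt17, and of those of Krt17 15.8% recur, so estimated counts of these genes may be split between them.

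Vimentin fell along both factor courses without nearing the levels of the keratins. The gene lies at chr2:13573927-13582826 on the plus strand. Vim was at 6537, 4999, 3504, 2932 and 2639 TPM at days 0 to 4 of OvSvK, and at 6518, 6379, 3119, 2854 and 2781 TPM at days 0, 1, 3, 5 and 7 of OSK. In GFP it was at 9120, 5851, 4968 and 4403 TPM at days 1, 3, 5 and 7. It fell by 0.45 log2 units per day in OvSvK (SE 0.12, adjusted p = 0.0319) and by 0.34 in OSK (SE 0.06, adjusted p = 0.00232). Without OSK day 0 the OSK slope was -0.23 (adjusted p = 0.0175). In GFP the slope was -0.19 (SE 0.08, adjusted p = 0.165). The OvSvK call was lost without any of the 5 OvSvK libraries or OSK day 5 (adjusted p 0.0521 to 0.395), and the OSK call was kept under each alternative run. OSK was below GFP by -0.92 (SE 0.21, adjusted p = 0.0249), lower on 4 of 4 days, and the call ended without day 3 (adjusted p = 0.159) or day 5 (adjusted p = 0.172).

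Of the 7 members that passed the filter for OSK against GFP, 4732456N10Rik and Krt14 did so only through OSK and are not counted. Of the other 5, 2 were lower (Krt18 and Vim), none was higher and 3 did not pass, while 14% of all 12680 genes tested were called lower and 16.8% higher. In OvSvK 2 of 7 tested members rose over the days (Krt8 and Krt18) and Vim fell, with 4.49% of 13848 genes rising and 5.81% falling. In OSK 1 of 8 rose (Krt8) and 2 fell (Krt19 and Vim), with 21.5% of genes rising and 24% falling. In GFP 0 of 5 tested members were called in edgeR's quasi-likelihood test and 0 in DESeq2, 1 (Vim) had an unadjusted p under 0.05, and 4.8% of genes were called in either direction. For single days a difference of 2-fold with at least 5 CPM on 1 side was taken as the limit, with no test. Apart from 4732456N10Rik, whose OvSvK level chose it, OvSvK was past it above OSK for Krt14 at day 1 (15.8% of genes) and for Krt14, Krt8, Krt18 and Krt19 at day 3 (11.9% of genes). It was past it below OSK for none (7.67% and 9.93% of genes at days 1 and 3). At day 0, where both arms lie within a technical set, OvSvK was past the limit below OSK for Krt7 and Krt19 (22.5% of genes). It was past the limit above OSK for none at day 0 (24.1% of genes).

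Of 47 further keratin genes 38 had counts, and 6 reached 5 CPM in any library. Of these 6, Krt13, Krt16, Krt6a and Krt6b, which are keratins of stratified epithelia, had their highest level of the 20 libraries in OvSvK at day 1 or 2. In OSK against GFP 5 of the 47 passed the filter on low counts, and 3 of them (Krt13, Krt16 and Krt6a) had under 10 counts in each GFP library and passed only through OSK, so they are given by their levels. Of the other 2, Krt80 was higher and Krt10, a keratin of the suprabasal epidermis, did not pass (-0.52, SE 0.41, adjusted p = 0.373). Krt13, a keratin of mucosal stratified epithelia, was at 9.25, 101.3, 119.1, 104.5 and 44.5 TPM at days 0 to 4 of OvSvK and at 6.96 to 20.96 TPM in OSK, against 0.48 to 0.90 TPM in GFP. Krt16 and Krt6a, an epidermal pair that appears in wounding, were higher in OvSvK from day 1 on than in any OSK or GFP library, with their highest level at day 1. In OvSvK Krt16 was at 10.1, 44.4, 37.7, 31.6 and 20.1 TPM and Krt6a at 4.93, 93.2, 52.5, 42.4 and 25.8 TPM at days 0 to 4. In OSK they reached 5.30 and 11.3 TPM, against at most 0.16 TPM of Krt16 and 0 counts of Krt6a in GFP. Krt6b, which is closely related to Krt6a, had up to 9.07 TPM in OvSvK and 0 in GFP. Krt80, in contrast, was at 13.4, 6.05, 5.63, 3.21 and 3.22 TPM in OvSvK and at 6.47 to 14.3 TPM in OSK, against 0.63 to 3.75 TPM in GFP (2.52, SE 0.64, adjusted p = 0.0338). Krt20 was at 3.82 to 12.5 TPM in OvSvK, 1.31 to 5.6 TPM in OSK and 0.21 to 1.30 TPM in GFP and was not tested against GFP. Krt5, the usual partner of Krt14, had 2, 8, 9, 20 and 20 counts at days 0 to 4 of OvSvK and 24, 15, 9, 2 and 3 in OSK, against 34, 1, 0 and 0 in GFP. Its highest level of the 20 libraries was thus in GFP at day 1 (3.81 TPM), with at most 2.16 TPM in OvSvK. At these counts its line rose in OvSvK (0.68 per day, SE 0.19, adjusted p = 0.0453) and fell in OSK (-0.56, SE 0.11, adjusted p = 0.00289) and in GFP (-2.21, SE 0.25, adjusted p = 0.00131). The GFP fall rests on the 34 counts of day 1, the GFP library that stood apart in GC content. The OSK line starts at day 0, in the other technical set. Leaving out single libraries was not tried for Krt5. Krt15, another basal keratin, had 12 counts over all 20 libraries.

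Markers of other cell types were read beside these keratins. The summed level of 12 genes of stratified epithelia, Krt5 and Krt6a among them, was 119 to 387.9 TPM in OvSvK and 143.9 to 465 TPM in OSK, against 45.2 to 171.5 TPM in GFP. Much of it was Perp and Itgb4, at 262.5 and 176 TPM of the 465 TPM at OSK day 5. At GFP day 7 Perp was at 157.9 of 171.5 TPM. Krt15, Dsc3 and Dsg3 were at most at 0.38, 1.67 and 2.11 TPM in these arms. Apart from Krt6a, 3 of the 12 were tested in OSK against GFP, where 16.8% of all genes were higher and 14% lower. Of these, 2 were higher, Itgb4 (4.53, SE 0.42, adjusted p = 0.00233) and Sfn, and Perp did not pass. The 10 genes of simple epithelia summed to 7.83, 40.7, 164.7, 325.1 and 566.4 TPM at days 0 to 4 of OvSvK and to 3.06, 5.68, 67.7, 143.9 and 491.9 TPM in OSK, against 1.34 to 6.86 TPM in GFP. This is the order of days seen for Krt8. Some of these genes passed the filter on low counts through the late libraries with factors, so calls of their slopes are not counted. Esrp1, for example, had 0, 0, 0, 16 and 225 counts at days 0, 1, 3, 5 and 7 of OSK. Cdh1, E-cadherin, had 59 to 5337 counts in OSK at days 1 to 7, against 0 to 2 in GFP. Mesothelial genes (7 of 8 matched) summed to 135.2 to 329.2 TPM in OvSvK and 201.2 to 334.3 in OSK, against 37.0 to 84.8 TPM in GFP. Msln alone made up 78% to 96.6% of that sum in OvSvK and 87.2% to 99.1% in OSK, against 55.4% to 73.3% in GFP, and was higher in OSK than in GFP (2.35, SE 0.44, adjusted p = 0.015). Bnc1 was lower, at 0.34 to 2.25 TPM in OvSvK and 0.43 to 2.02 TPM in OSK, against 11.6 to 14.3 TPM in GFP (OSK against GFP -3.64, SE 0.40, adjusted p = 0.00348), and Upk1b did not pass. Trophoblast genes summed to 6.87 to 79.8 TPM in OvSvK and 1.92 to 20.9 in OSK, against 1.68 to 3.51 TPM in GFP, with 1 higher and 1 lower of 2 tested. Tfap2c alone was at 52.9 of the 79.8 TPM at OvSvK day 4 and at 12.85 of the 20.9 TPM at OSK day 7. At OvSvK day 4 Cdx2, Elf5, Eomes and Gata3 were at 4.48 to 7.64 TPM, while Hand1, Prl3d1 and Tpbpa had 0 counts. Of 8 smooth muscle genes 6 were lower and 1 higher in OSK than in GFP, and of 10 fibroblast genes 5 were lower. Of 10 pluripotency genes 1 passed the filter on low counts, Tfcp2l1, with 259 to 9124 counts in OSK at days 1 to 7, against 8 to 21 in GFP. The part of other cell types in the keratin levels was not tested.

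Other filament and linker genes moved as well. Of 17 further intermediate filament genes 12 were tested in OSK against GFP, where 16.8% of all genes were higher and 14% lower. Of the 12, 4 were higher and 4 lower, and their median was 0.19. Higher were the neurofilament genes Nefl (6.10, SE 0.73, adjusted p = 0.00419) and Nefm (2.19, SE 0.30, adjusted p = 0.0064), and Nes, nestin of progenitor cells (2.28, SE 0.45, adjusted p = 0.0176). Nefl was at 3.67, 263.9, 656.4, 415 and 228.8 TPM at days 0 to 4 of OvSvK, above any keratin from day 1, with the same peak at day 2 as 4732456N10Rik and Krt14. Lower were Lmna, lamin A/C of the nuclear envelope (-0.83, SE 0.17, adjusted p = 0.0179), Iffo2 (-1.11) and Sync (-2.52). Of 13 tested genes that link filaments to junctions, the desmosomal gene Pkp1 passed the filter only through OSK, with 125 to 4050 counts in OSK, against 0 to 4 in GFP. Of the other 12, 5 were higher and 1 lower. Among them were desmosomal Dsp (3.00, SE 0.53) and the plakophilin-related Pkp4 (1.82, SE 0.21), while Fbf1, which binds keratin filaments, was lower (-0.84, SE 0.16).

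Without bFGF the OSK cells held less of several keratins. Apart from Krt14, which is not counted, 4732456N10Rik and Krt18 were called lower in the test with day as a block. No member was called higher. Of 14191 genes 7.77% were called lower and 4.71% higher. 4732456N10Rik was at 3.17 and 2.81 TPM at days 3 and 7 without bFGF against 27.8 and 7.77 TPM in OSK (-2.24, SE 0.37, adjusted p = 0.00906). Krt14 had 2 and 7 counts against 26 and 45. With under 10 counts in both no-bFGF libraries it passed the filter through the other arms, so this difference is given without a test. Krt18 was at 1.42 and 2.33 TPM against 5.89 and 10.1 TPM (-2.07, SE 0.49, adjusted p = 0.0252). Krt8, at 3.18 and 11.5 TPM against 13.4 and 55.2 TPM, did not pass (-2.17, SE 0.95, adjusted p = 0.184), nor did Krt19, at 1.98 and 2.79 TPM against 5.32 and 22.5 TPM (-2.17, SE 0.94, adjusted p = 0.166). With either no-bFGF library left out, the calls of 4732456N10Rik and Krt18 ended. Without the day 3 or the day 7 library the difference was -1.62 or -2.855 for 4732456N10Rik and -2.06 or -2.03 for Krt18. The call of Krt18 also ended without OSK day 7 (-1.80). Vim was at 4098 and 2722 TPM without bFGF against 3119 and 2781 TPM in OSK. All these differences cross the technical sets. Within a set, no vitamin C over no bFGF at day 7 was 7.85-fold for Krt8, 7.85-fold for Krt18 and 20.1-fold for Krt19. For 4732456N10Rik it was 1.29-fold (0.862 to 1.93) at day 7 and 3.92-fold (2.83 to 5.47) at day 3. Other marker lists moved in these libraries as well. Fibroblast genes summed to 6449 and 3755 TPM at days 3 and 7 without bFGF against 3892 and 1131 TPM in OSK, with 7 of 10 higher. Simple epithelial genes summed to 27.2 and 130.6 TPM against 67.7 and 491.9 TPM. Pluripotency genes summed to 79.5 and 243.2 TPM against 213.9 and 888.5 TPM. Some genes of both lists had under 10 counts in both no-bFGF libraries, such as Cldn6 (0 and 3) and Dppa4 (1 and 2). Calls of these lists are therefore not counted. The part of these cell types in the keratin levels was not tested.

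**Figure D4:**
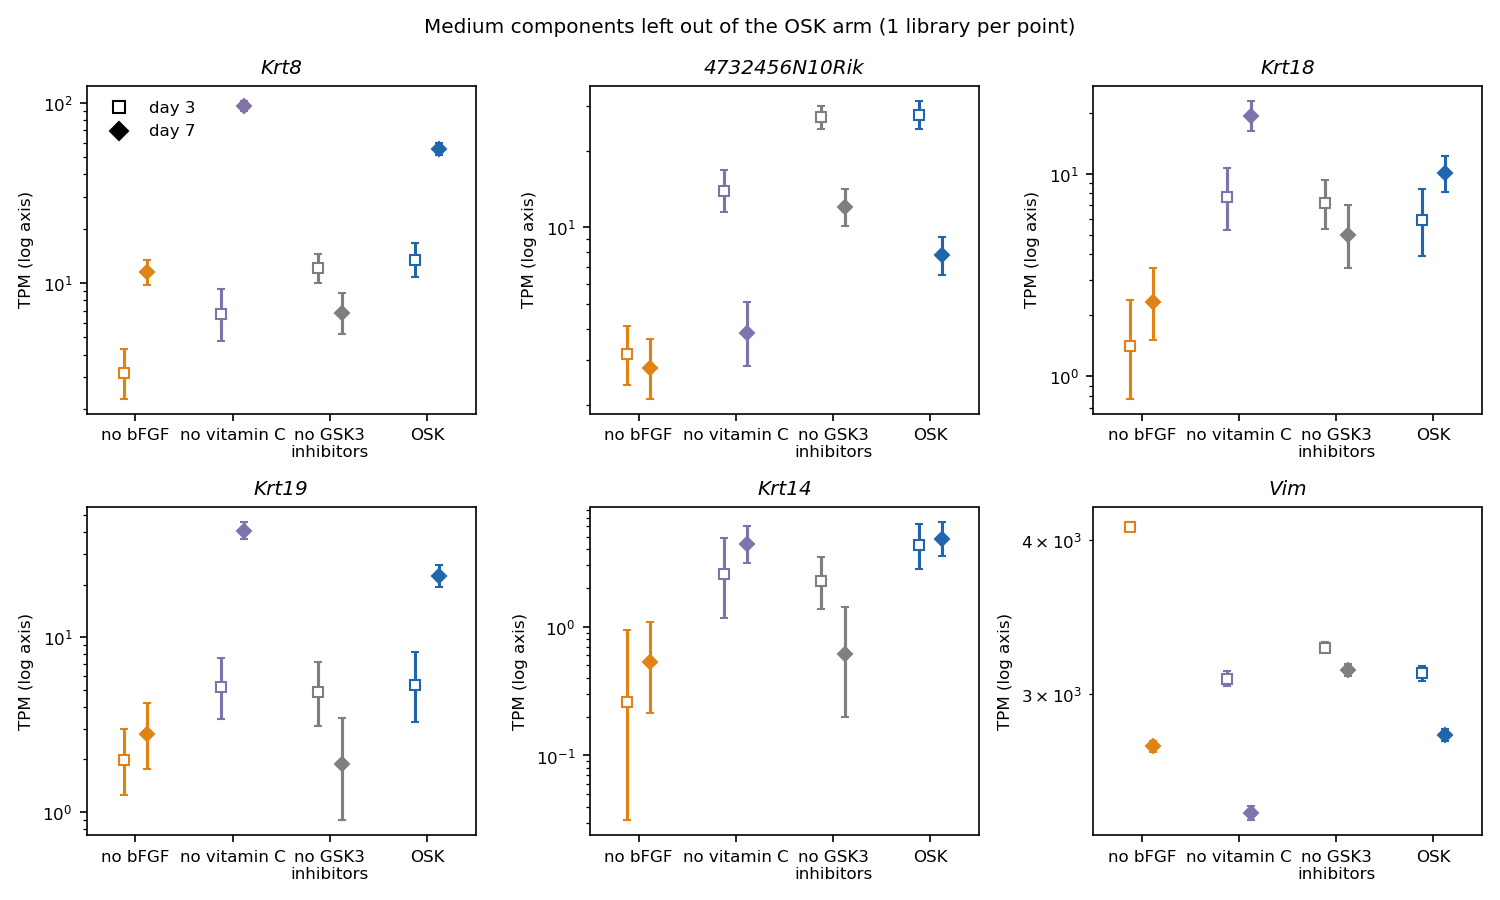
TPM on a log axis at day 3 (open squares) and day 7 (filled diamonds) for 6 genes in the 3 omission arms and in OSK, 1 library per point, with 95% Poisson intervals of the count. Day 7 without vitamin C had the highest Krt8, Krt18 and Krt19, and both no-bFGF libraries had less 4732456N10Rik and Krt18 than any other library shown.

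Without vitamin C no member passed the test in edgeR's quasi-likelihood fit (8 tested, 1 with an unadjusted p under 0.05, 0 in DESeq2), where 0.296% of genes were called. The days differed in level: Krt8 was at 6.73 TPM at day 3 without vitamin C against 13.4 TPM in OSK, and at 95.5 TPM at day 7 against 55.2 TPM. At day 7 Krt8, Krt18 (19.4 TPM against 10.1 in OSK) and Krt19 (40.7 against 22.5) were at the highest level of the 4 media. Krt14 was at 2.57 and 4.40 TPM against 4.31 and 4.82 TPM. 4732456N10Rik was lower at day 7, with 0.428 times the OSK level (0.302 to 0.598), and it was the 1 of 8 members past the 2-fold limit there (3.17% of genes lower).

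Without the GSK3 inhibitors no member was called over both days in edgeR's quasi-likelihood test (8 tested, none with an unadjusted p under 0.05, 0 in DESeq2), where 23.3% of genes were. At day 3 no member was past the 2-fold limit (9.12% of genes lower and 7.09% higher), with Krt8 at 12.1 TPM against 13.4 TPM in OSK and 4732456N10Rik at 27.1 against 27.8 TPM. At day 7, 4 of 8 were past it and lower (15.1% of genes). Krt8 was at 6.81 TPM against 55.2 TPM (0.112 times, 0.0840 to 0.146), Krt19 at 1.87 against 22.5 TPM (0.0674 times, 0.0318 to 0.127), Krt18 at 4.98 against 10.1 TPM and Krt7 at 0.59 against 2.97 TPM. 4732456N10Rik was at 12.0 against 7.77 TPM. These day 7 values rest on 1 library each, and the difference between the days was not tested. The 10 simple epithelial genes summed to 66.7 TPM in the day 7 library without inhibitors, against 491.9 TPM in OSK. Some of them had under 10 counts in both libraries without inhibitors, such as Esrp1 (0 and 4) and Cldn7 (1 and 3). Calls of this list are therefore not counted. Fibroblast genes summed to 2604 TPM in the day 7 library without inhibitors against 1131 TPM in OSK. Of these, 5 of 10 were higher over both days (9.97% of all genes). The part of these cells in the keratin levels was not tested.

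The table of the whole series places mESC and MEF beside the courses, on the deposited normalized score, whose values were set to 1 distribution in all 22 columns. Krt8 had a score of 711 at OvSvK day 4, 652 at OSK day 7 and 958 at day 7 without vitamin C, against 13 in mESC and 1 in MEF. Neither mESC nor MEF held the level seen at the ends of the courses. Krt18 scored 314 to 784 in the GFP libraries, against 22 in mESC and 29 in MEF, so the Krt18 of GFP cells was above that of the MEF column. 4732456N10Rik scored 2012 at OvSvK day 4 and 108 at OSK day 7, against 0 in mESC and 1 in MEF. Krt14 scored 446 at OvSvK day 4 and 29 at OSK day 7, and was listed at 0 in mESC and MEF. Krt19 scored 2 in mESC and 90 in MEF, Krt7 22 and 55, and Vim 2344 and 21348. The mESC and MEF columns came from another RSEM version and the mm9 build, which cannot be told apart from the cells.

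The genes most like each member over the 20 libraries were found by Pearson r of log2(CPM + 1) among 11233 genes with a mean of at least 5 CPM. The libraries share arms, days and technical sets, and r is given as a description. Krt8 was closest to Gpx2 (0.94), Fam25c (0.92) and Epcam (0.91), the last an epithelial adhesion gene. Krt18 was closest to Tmem26 (0.90), Chst11 and Bnc2 (both 0.89), and Krt19 to Eno1 (0.87) and Plaur (0.86). Krt14 was closest to Soga3 (0.97), Krt16 (0.94) and Krt6a (0.93). 4732456N10Rik was closest to Aim1 (0.95), Insc (0.94) and Tbc1d30 (0.93), and had r of 0.83 with Krt14 and 0.52 with Krt8. Vim was closest to Arf1 (0.98), Ap1s1 (0.97) and Nmt1 (0.96), and had r of -0.74 with Krt8. No gene was sought for Krt7 and Krt17, whose means were under 5 CPM.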

How the data were processed

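Expression was measured in 20 libraries made from total RNA with an Illumina TruSeq kit, per the labels' protocols. The authors estimated gene-level expected counts and TPM with RSEM 1.2.4 on the mm10 build, per the submitters' processing notes; mESC and MEF were processed with RSEM 1.1.21 on mm9. The deposited FPKM values of the authors were not used. Aligner settings, read length and strand handling are not given there. A deposited series-wide table lists 12897 genes over 22 columns as a normalized score with 1 distribution (median 374, highest 58542) and was used only for levels. Antisense and overlapping genes cannot be told apart without strand, and Krt8 overlaps the antisense gene model Gm36026.

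Expected counts were rounded and scaled by TMM, and genes were kept with edgeR's filterByExpr over arms. EdgeR 4.0.16 quasi-likelihood tests were fitted with R 4.3.3 to all genes with Benjamini-Hochberg adjustment at 0.05: OSK against GFP, blocked by day (12680 genes in 8 libraries, 3 residual degrees of freedom), a line per arm over days (14 libraries, 13848 genes, 8 degrees of freedom), and each omission against OSK, blocked by day (14191 genes in 8 libraries, 3 degrees of freedom). As no arm and day was repeated, the error is the variation of a difference over days or the departure from a line, and p-values do not measure spread between separate cultures. Slopes of members with at most 3 counts in total over the libraries of an arm were not tested. Other genes that passed the filter were tested in every arm. Single days were compared as ratios of CPM with 95% Poisson intervals, a prior count of 2 for log2 values and a limit of 3 counts for 0. Intervals and limits cover counting error only. Totals ran from 7872277 to 20720718 counts. The fits were tested on simulated data with known changes. Symbols came from the series table (12897 genes) and GENCODE M21 (10788), and 445 of 24130 genes had none.

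The members and gene lists were chosen with earlier results of these data known. All 8 members are named, with keratins reaching 5 CPM in a library, up to 3 genes per direction of other lists by the smallest p in OSK against GFP, and the 3 genes most like each member, of which 1 is not reported here. Krt5, Krt10 and Krt15 were added after their values were seen, and so was leaving untested against GFP the genes that had under 10 counts in each GFP library. Leaving Krt14 untested without bFGF was likewise chosen after seeing the data, and so was not counting some calls of marker lists. Alternatives were RLE size factors, DESeq2 1.42.0, no filter on low counts and limma 3.58.1 on log2(TPM + 1) of genes with at least 1 TPM. In another, a smooth trend over GC content was removed from each library (97.8% of genes had a GC value). Each library or day was also left out, and OSK day 0 and GFP day 1 together. Leaving out each omission library was chosen after seeing the data.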

Additional observations from a re-analysis of the deposited data

Results flagged for a closer look

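Krt8 changed its direction between days in OSK against GFP. The log2 ratio was -1.80 at day 1 and 2.00, 2.38 and 4.63 at days 3, 5 and 7. Krt7 did so as well, with -2.14 at day 1 and 1.82 at day 7. Krt19 was below OSK at day 0 in OvSvK (-1.72) and above it at day 3 (2.90), a day on which these arms lie in different technical sets. Each of these ratios compares 1 library with 1 library, and the difference between the days was not tested. The day 1 ratios use the GFP library that stood apart in GC content, and the day 0 ratio uses OSK day 0, which stood farthest apart; their part in these ratios was not tested.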

How the results depend on the processing

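Of 51 results on single genes, 13 passed the test. The 13 count 4732456N10Rik and Krt14 in OSK against GFP, which passed the filter only through OSK. They also count Krt14 without bFGF, given above without a test. Over 195 alternatives of the 13, 158 kept the call, 35 lost it and 2 turned its direction. The 9 alternatives of each of the OSK against GFP results of 4732456N10Rik and Krt14 are among those kept. They are no measure of stability, since these genes had at most 1 count in each GFP library. Both turns were the Krt19 slope in OSK, 0.0463 without OSK day 0 and 0.0456 without OSK day 0 and GFP day 1 together (-0.93 to 0.05 with any 1 library left out); it was also lost with limma on TPM and with the GC trend removed. Of 580 alternatives of results that had not passed, 10 passed, and 41 had another sign while passing in neither setting. Krt8 in OSK against GFP passed with DESeq2 (2.04, adjusted p = 0.0333).

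Genes called over the whole table depended on the setting. For the OvSvK slope 1426 genes were called, 2383 with DESeq2, 2695 with the GC trend removed and 3163 without OSK day 0 and GFP day 1. For the OSK slope the last of these gave 3498 in place of 6298. For the GFP slope 665 genes were called, 2202 with DESeq2, 1091 with the GC trend removed and 2 without both libraries. Without bFGF 1771 genes were called, 1029 with limma and 504 with the GC trend removed. Without vitamin C 42 were called, 296 with DESeq2, 139 without a filter, 8 with limma and 12 with the GC trend removed. Without GSK3 inhibitors 3309 were called, and 1136 with the GC trend removed. The causes were not tested.

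With 1 library or day left out at a time, genes called ranged from 933 to 6012 in OSK against GFP, 189 to 2651 for the OvSvK slope, 2908 to 6845 for the OSK slope, 0 to 2646 for the GFP slope, 9 to 3782 without bFGF, 3 to 1381 without vitamin C and 5 to 4536 without GSK3 inhibitors. Members called ranged from 3 to 5, 0 to 3, 2 to 3, 0 to 2, 0 to 4, 0 to 0 and 0 to 3 in the same order. The first of these ranges counts 4732456N10Rik and Krt14, which passed the filter only through OSK. Krt14 is also counted in the range without bFGF. Day paired the libraries as a block in the comparisons of arms, and the labels number no replicates that could pair them otherwise. Depth limits every keratin here: of 20 libraries, Krt17 had under 100 counts in 20, Krt7 in 19, Krt14 in 16, Krt8 and Krt18 in 12, Krt19 in 11 and 4732456N10Rik in 9.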
